A study of Mus musculus with 16 samples.

Results

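The expression of 9 oncofetal growth genes was followed in the ventricles of mouse embryos with hypoplastic left heart syndrome (HLHS), a malformation in which the left ventricle is small. The 9 genes were chosen by name: Hmga1 and Hmga2, Igf2bp1, Igf2bp2 and Igf2bp3, Lin28a and Lin28b, and the growth factors Mdk (midkine) and Ptn (pleiotrophin). Each was found by its Ensembl identifier among the 37991 genes of the deposited count table. Both ventricles of 8 embryos on a C57BL/6 background were sequenced separately, which gave 16 bulk libraries. Stages are embryonic days (E). The E13.5 litter gave 1 HLHS embryo and 1 littermate control, while the litters of E14.5 and E17.5 each gave 1 HLHS embryo and 2 littermate controls. The labels used here give the phenotype of each embryo and no allele. Each stage was 1 litter, so stage and litter cannot be told apart. In bulk RNA, fewer cells of a type and less RNA per cell cannot be told apart either.

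These genes act in a linked set of fetal growth controls. LIN28A and LIN28B are RNA-binding proteins that block the processing of let-7 microRNA precursors. As let-7 accumulates during development, it represses messenger RNAs that carry its sites, and Hmga2, Igf2bp1 and Lin28b are among its classic targets. HMGA1 and HMGA2 are small architectural chromatin proteins that bind AT-rich DNA, the IGF2BP proteins bind messenger RNAs such as Igf2 and Myc and alter their stability and translation, and midkine and pleiotrophin are related heparin-binding growth factors. Most of them are high in the embryo, fall before or after birth, and are raised again in many tumours.

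The seed match to let-7 was found for most of these genes but not for Mdk and Ptn. It is shown here for the microRNA, for Hmga2, on which the results below turn, and for Igf2bp1, which holds as many matches. Mature let-7a, as RefSeq lists it on GRCm38.p6 (1 copy at chr13:48538239-48538260, minus strand), reads as follows, with its seed, bases 2 to 8, in capitals.
mmu-let-7a-5p: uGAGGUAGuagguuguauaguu
Of the 1679 mature mouse names that RefSeq lists there, 11 carry this seed. The match searched in the longest annotated 3′ untranslated region (UTR) of each gene was CTACCTC on the transcript strand, and CTACCTCA where an A follows, in the GENCODE M21 transcripts of GRCm38. In the lines below, capitals mark that match, read 5′ to 3′.
Hmga2 site 1, chr10:120364224-120364231, minus strand: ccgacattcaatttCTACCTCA
Hmga2 site 2, chr10:120362988-120362994, minus strand: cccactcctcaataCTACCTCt
Hmga2 site 3, chr10:120362550-120362556, minus strand: tgatttgcaaggaaCTACCTCc
Hmga2 site 4, chr10:120361692-120361698, minus strand: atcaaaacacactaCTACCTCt
Igf2bp1 site 1, chr11:95961778-95961785, minus strand: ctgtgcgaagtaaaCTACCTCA
Igf2bp1 site 2, chr11:95959357-95959364, minus strand: agcagtgctattaaCTACCTCA
Igf2bp1 site 3, chr11:95958763-95958770, minus strand: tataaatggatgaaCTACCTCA
Igf2bp1 site 4, chr11:95958141-95958147, minus strand: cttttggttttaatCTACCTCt

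Hmga2, Igf2bp1 and Lin28b each held 4 such matches, Lin28a held 2, and Hmga1, Igf2bp2 and Igf2bp3 held 1 each. Mdk and Ptn had none in their 3′ UTRs. Over 21024 genes, 9.02% of 3′ UTRs held at least 1 match. Among 3′ UTRs within 10% of the length of each gene's own, at least 4 matches were found in 0.0898% of 1113 for Hmga2, in 0.330% of 606 for Lin28b and in 0% of 242 for Igf2bp1, not counting the gene itself. In the same way, at least 2 were found in 1.93% of 1194 for Lin28a. At least 1 was found in 8.40% of 1405 for Hmga1, 11.3% of 1472 for Igf2bp2 and 14.3% of 1380 for Igf2bp3. For Mdk and Ptn the shares with at least 1 were 2.27% of 837 and 11.3% of 1462, so most 3′ UTRs of their length held none either. A match is a description of the letters and not evidence of binding. Mature let-7 was not measured here, since poly-A libraries do not hold it.

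All 9 genes were in the count table, and 8 had enough reads to be tested in the main comparisons. Levels are given as normalised read counts (CPM) scaled with the TMM factors of edgeR, and levels of different genes are set beside each other only per kilobase (kb) of the longest annotated transcript. On that per-kb scale the medians over 16 libraries were 113 CPM per kb for Mdk, 76.9 for Ptn, 45.5 for Hmga1, 22.6 for Igf2bp2, 10.1 for Igf2bp3, 7.65 for Hmga2, 5.42 for Igf2bp1 and 1.41 for Lin28b. The ranges of neighbours in this order overlapped except between Igf2bp2 and Igf2bp3 and between Igf2bp1 and Lin28b, and Lin28a lay below all of them with no overlap. Lin28a had 0 to 14 reads per library, 56 over all 16. Its 10 control libraries held 22 reads and its 6 HLHS libraries 34, too few for a test of HLHS against control. In 3 control libraries it was at 0 reads, which allows up to 0.120 to 0.176 CPM (3 reads, counting error only).

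Total counts ran from 17081273 to 28648645 per library. Cardiomyocyte markers reached 1 CPM in every library for 14 of 14 genes, and lung epithelium markers stayed under 1 CPM in every library for 9 of 9. Where the counting rules for overlapping genes are not given, reads of partners on the opposite strand cannot be told apart: Malsu1, opposite Igf2bp3, had 271 to 603 reads, AI413582, opposite Hmga1, had 86 to 229, and 1700006J14Rik, antisense to Hmga2, had 2 to 17. The related copies Hmga1b and Mdk-ps1 were at 0 in every library.

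**Figure D1:**
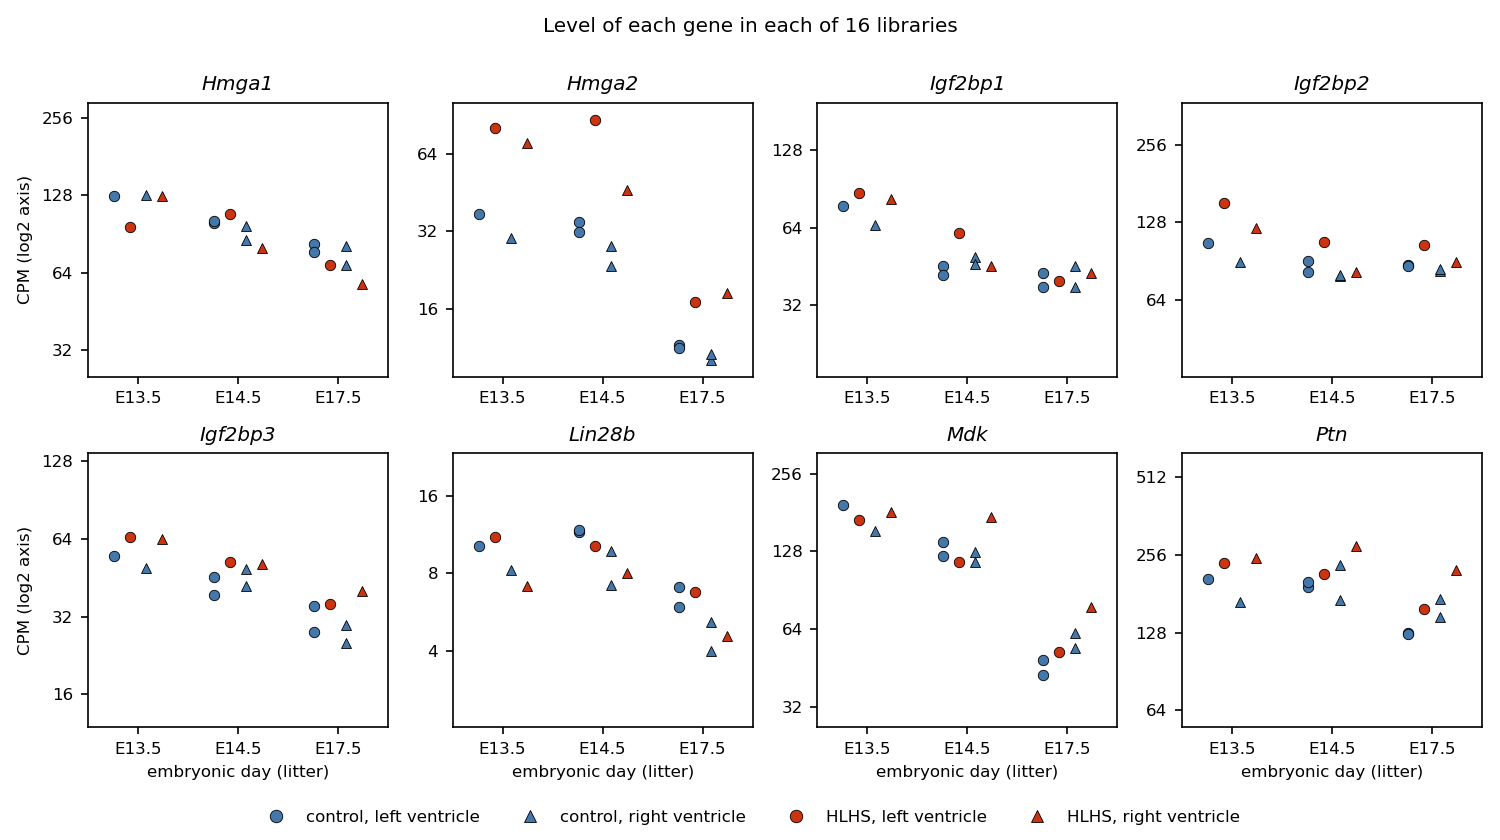
Level of 8 genes in each of 16 libraries, in CPM on a log2 axis, by litter. Circles are left and triangles right ventricles, blue marks control and red HLHS embryos. Every panel spans the same fold range. Hmga2 stands higher in the HLHS library than in its littermates in each litter and on both sides, and most genes are lower at E17.5.

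In control embryos most of these genes were lower at E17.5 than at E14.5. Hmga2 and Mdk had the steepest differences, 2.72-fold and 2.46-fold. Counts of both ventricles were summed for each of 4 control embryos and tested with the quasi-likelihood test of edgeR, adjusted over all genes after Benjamini and Hochberg. The embryos of each stage were littermates, so SE and p between stages hold the spread within litters and not that between litters. All stage differences below are differences between the E14.5 and the E17.5 litter. Of the 8 members tested, 6 were lower at E17.5, and 0 were higher. Across the 16823 genes tested, 14.1% were lower and 15.8% higher, 30% in all. The median log2 difference was −0.54 over the members and −0.01 over all genes. Between these litters, 5 of the 8 had both E17.5 control libraries below both E14.5 ones on each side (Hmga1, Hmga2, Igf2bp3, Lin28b and Mdk), against 20.3% of all genes.

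Hmga2 held 37.3 CPM in the left ventricle of the E13.5 control, 34.7 and 31.8 in those of E14.5, and 11.6 and 11.3 in those of E17.5. On the right the values were 30.2, then 23.5 and 28.1, then 10.2 and 10.7. The 4 libraries of E17.5 thus lay below the 6 earlier ones with no overlap, and the summed difference between E17.5 and E14.5 was −1.44 ± 0.08 on the log2 scale (SE, n = 2 and 2 embryos, adjusted p = 3.81e-04). Hmga1, its ubiquitous relative, was lower by a smaller amount, with −0.32 ± 0.08 (adjusted p = 0.0229). The Hmga1 call was lost with the right ventricles alone (adjusted p = 0.0872) and without control replicate 5 (0.0723).

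Mdk held 193 CPM in the E13.5 control left ventricle, 123 and 139 at E14.5 and 48.7 and 42.5 at E17.5. Its right ventricle values were 153, then 127 and 116, then 53.9 and 61.6. All 3 stages were separate on both sides, and the E17.5 to E14.5 difference was −1.30 ± 0.06 (adjusted p = 3.15e-04). Ptn had 128 and 127 CPM in the E17.5 control left ventricles against 192 and 202 at E14.5, but on the right 147 and 173 against 234 and 172, where the stages overlapped. Its summed difference was −0.49 ± 0.08 (adjusted p = 0.00684), which was not called on the right ventricles alone (adjusted p = 0.127).

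The RNA-binding members did not share 1 course. Lin28b held 11.6 and 11.8 CPM at E14.5 and 5.94 and 7.10 at E17.5 in the left control ventricles, with 10.2 at E13.5. On the right it held 7.21 and 9.80, then 4.01 and 5.20, with 8.27 at E13.5. Its difference between E17.5 and E14.5 was −0.88 ± 0.14 (adjusted p = 0.00611). The E13.5 value lay below both E14.5 values on the left and between them on the right. Igf2bp3 was lower by −0.59 ± 0.12 on the log2 scale (adjusted p = 0.0139). For Igf2bp1 the difference was −0.17 ± 0.10 (adjusted p = 0.221). Its high control values were those of E13.5, at 77.4 CPM on the left and 65.6 on the right, and the 8 later control libraries lay between 37.7 and 49.4. Igf2bp2 had a difference of 0.03 ± 0.06 (adjusted p = 0.714), with its 8 control libraries of E14.5 and E17.5 between 78.9 and 90.6 CPM.

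**Figure D2:**
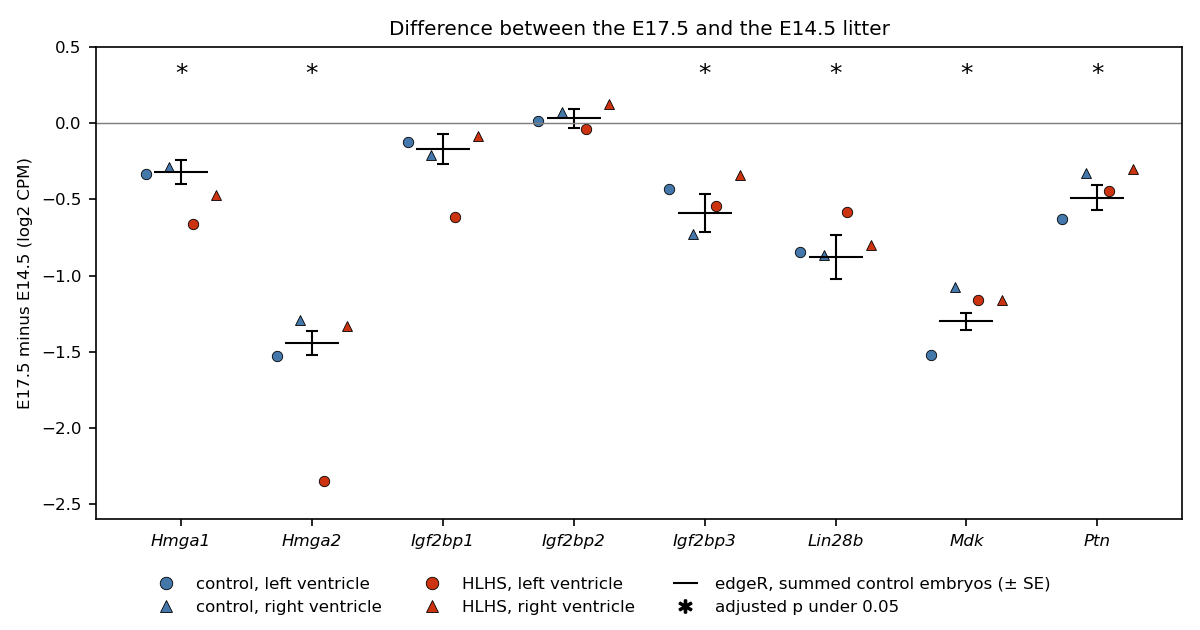
Difference between the E17.5 and the E14.5 litter in log2 CPM for 8 genes. Symbols give each side and phenotype (means over 2 control embryos, single HLHS embryos), black bars the edgeR change over summed control embryos with its SE, and stars an adjusted p under 0.05. The HLHS left ventricle of Hmga2 has the lowest point, at −2.35.

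Within HLHS embryos the same litters differed in the same direction for 7 of the 8 genes on both sides, as single embryos with no test. Hmga2 went from 86.8 to 16.95 CPM in the HLHS left ventricle, a log2 difference of −2.35, and from 46.5 to 18.4 on the right, a difference of −1.33. Mdk differed by −1.16 on each side. Igf2bp2 was the exception, with −0.04 on the left and 0.12 on the right.

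HLHS ventricles held about 2-fold more Hmga2 RNA than those of littermates, on both sides. Ptn was also higher on both sides, Igf2bp2 was higher in the left ventricle, and Mdk in the right. Hmga1, Igf2bp1, Igf2bp3 and Lin28b did not pass the test on either side. With the litter as a term in the edgeR fit, 3 of 8 members tested were higher and 0 lower in the HLHS left ventricle, where 6.17% of 15979 genes were higher, 6.61% lower and 12.8% differed in all. In the HLHS right ventricle 3 of 8 were higher and 0 lower, where 3.56% of 16142 genes were higher, 3.05% lower and 6.61% differed in all. With the ventricles summed per embryo, 5 of 8 were higher (Hmga2, Igf2bp2, Igf2bp3, Mdk and Ptn), and 0 lower, against 6.85% of 17429 genes higher, 6.93% lower and 13.8% in all. The members' median log2 difference was 0.24 on the left and 0.27 on the right, and that of all genes was 0.01 on each.

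In order of stage, Hmga2 in the HLHS left ventricle stood at 80.4, 86.8 and 16.95 CPM, and in the HLHS right ventricle at 70.2, 46.5 and 18.4 CPM. Each of the 6 HLHS libraries was above every littermate of its side. The 4 of E13.5 and E14.5 were also above all 10 control libraries, whose highest value was 37.3, and the 2 of E17.5 lay between the controls of E17.5 and those of E14.5. The ratio to littermates was 2.15, 2.61 and 1.48 on the left and 2.32, 1.81 and 1.76 on the right, again from E13.5 to E17.5. Fitted over litters the difference was 1.07 ± 0.13 on the log2 scale on the left (2.10-fold, SE, 3 HLHS and 5 control libraries, adjusted p = 0.00169) and 0.94 ± 0.10 on the right (1.92-fold, adjusted p = 0.00336). Ranked by log2 difference, Hmga2 came 201st of 15979 genes on the left and 187th of 16142 on the right. Leaving out any 1 embryo kept both calls, and only fits without the litter lost them (adjusted p = 0.583 on the left and 0.561 on the right).

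Markers of other cells differed beside Hmga2, and their part in its difference was not tested. The summed level of 13 erythroid markers was 758 to 1339 CPM in HLHS and 477 to 842 in control left ventricles, higher than in littermates in all 3 litters, with 10 of 11 tested markers higher. On the right the sums were 558 to 810 and 484 to 779 CPM and 0 of 13 passed. With the globin genes left out, Hmga2 kept its call on both sides. Epicardial markers, summed over 11 genes, differed from littermates on the log2 scale by 0.57, 0.56 and −0.15 on the left and 0.79, 0.27 and −0.11 on the right, in order of stage. On the left only Krt19 (1.45 ± 0.28, adjusted p = 0.0110) and Krt18 (1.89 ± 0.28, adjusted p = 0.00392) passed. Krt8, Tbx18 and Bnc1 were positive there without passing, while Wt1, Aldh1a2, Upk3b, Upk1b, Msln and Lrrn4 were negative. On the right Krt18 (0.66 ± 0.12) and Bnc1 (0.83 ± 0.19) passed. Smooth muscle and pericyte markers, summed over 12 genes, were at 2381 to 3454 CPM in HLHS and 1985 to 2342 in control left ventricles, with no overlap and log2 differences from littermates of 0.30, 0.73 and 0.08. Of the 12, 3 were higher and 3 lower on the left (median −0.02). Cnn1 (calponin) was higher by 1.60 ± 0.13 (3.04-fold, adjusted p = 3.27e-04) and Tagln (transgelin) by 1.98 ± 0.40 (3.93-fold, adjusted p = 0.0140), while Myh11, the smooth muscle myosin, fell by 0.97 ± 0.22 (adjusted p = 0.0194). These 3 were picked after their values were seen. On the right the sums overlapped, 1941 to 2521 and 1900 to 2417 CPM, with differences of 0.28, −0.03 and 0.16, and 2 markers were higher and 1 lower. Beside these marker counts, 6.17% of all genes were higher and 6.61% lower on the left, and 3.56% and 3.05% on the right.

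**Figure D3:**
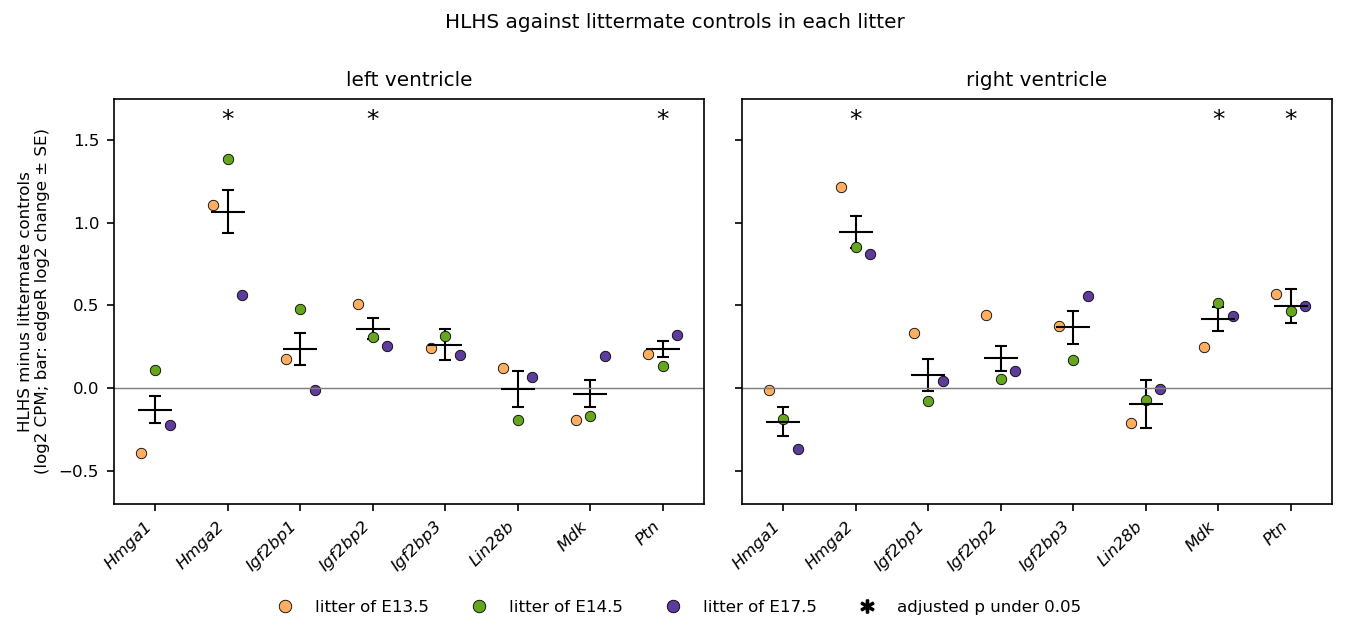
HLHS minus littermate controls in log2 CPM for each litter (coloured points) and the edgeR log2 change with its SE (black), left and right ventricle, with a star where the adjusted p was under 0.05. Hmga2 is above 0.5 in every litter on both sides, and Lin28b and Hmga1 lie around or below 0.

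Igf2bp2 held 152, 107 and 104 CPM in the HLHS left ventricles of E13.5, E14.5 and E17.5. Their littermates had 107 at E13.5, 90.6 and 81.7 at E14.5, and 87.3 and 86.7 at E17.5, so the HLHS library was the highest of each litter. The difference was 0.36 ± 0.06 (adjusted p = 0.00702) on the left. On the right HLHS values were 122, 82.3 and 89.7 CPM and control values 89.3, then 78.9 and 79.5, then 83.0 and 83.9. There the HLHS library was again above its littermates in each litter, by little after E13.5, and the difference of 0.18 ± 0.08 did not pass (adjusted p = 0.181). Summed per embryo the difference was 0.27 ± 0.06 (adjusted p = 0.0192), a call lost without control replicate 1 (adjusted p = 0.0628) or HLHS replicate 1 (0.0727).

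Igf2bp3 was above every littermate in each litter on both sides, at 65.1, 52.3 and 35.9 CPM on the left and 64.3, 51.1 and 40.3 on the right. Its differences were 0.26 ± 0.09 (adjusted p = 0.0882) and 0.37 ± 0.10 (adjusted p = 0.0584), neither past the threshold, and summed per embryo 0.30 ± 0.08 (adjusted p = 0.0409). The right difference was called by DESeq2 (adjusted p = 0.0184), with no count filter (0.0120), in 1 fit of all 16 libraries (0.0398) and without control replicate 2 (0.0189). The left one was called with no count filter (0.0440) and without control replicate 5 (0.0381). The summed call was lost with a term for sex (adjusted p = 0.0537) and without control replicate 1, 3 or 4 or any 1 HLHS embryo (0.0514 to 0.159). Igf2bp1 had 87.5, 60.9 and 39.7 CPM in the HLHS left ventricle, where the E17.5 value lay between its littermates at 37.7 and 42.5. Its differences were 0.24 ± 0.10 on the left (adjusted p = 0.135) and 0.08 ± 0.10 on the right (adjusted p = 0.680). Without HLHS replicate 3, of E17.5, the left difference was 0.37 and passed (adjusted p = 0.0269).

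Counted over genes, the HLHS library lay above every littermate in every litter for 4 of the 8 tested members on the left (Hmga2, Igf2bp2, Igf2bp3 and Ptn) and for 5 on the right (these and Mdk). Over all genes the shares were 15.1% and 15.7%. For Hmga1, on the right, the HLHS library was below every littermate in all litters, which held for 13.1% of all genes. On the left no member was below throughout, against 17.3% of all genes. Hmga1 differed by −0.13 ± 0.08 on the left (adjusted p = 0.342) and −0.20 ± 0.09 on the right (adjusted p = 0.191). Its HLHS values were 96.6, 109 and 68.7 CPM on the left and 127, 80.0 and 57.8 on the right. Without HLHS replicate 2 the left difference of Hmga1 was −0.28 and passed (adjusted p = 0.0487).

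Lin28b was level with its littermates. HLHS left ventricles held 11.1, 10.2 and 6.80 CPM, against 10.2 at E13.5, 11.6 and 11.8 at E14.5, and 5.94 and 7.10 at E17.5 in controls. HLHS right ventricles held 7.13, 8.003 and 4.56 CPM, of which the last 2 lay between their littermates. The differences of −0.01 ± 0.11 (adjusted p = 0.982) and −0.09 ± 0.14 (adjusted p = 0.746) did not pass.

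Of the growth factors, Mdk passed on the right and Ptn on both sides. Mdk held 182, 174 and 78.0 CPM in the HLHS right ventricle, each above its littermates at 153, then 127 and 116, then 53.9 and 61.6. The right difference was 0.42 ± 0.07 on the log2 scale (1.33-fold, adjusted p = 0.0130). In the HLHS left ventricle Mdk was at 169, 116 and 52.1 CPM, below its littermates at E13.5 and E14.5 and above them at E17.5, and the difference was −0.03 ± 0.08 (adjusted p = 0.830). The right call was lost without HLHS replicate 2 (adjusted p = 0.0734) or 3 (0.0631), and the summed call of 0.20 ± 0.06 (adjusted p = 0.0461) without any 1 of these or of control replicates 2 to 5 (0.0733 to 0.230) and with limma-voom (0.0637).

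Ptn held 239, 216 and 159 CPM in the HLHS left ventricle, against 207, then 192 and 202, then 128 and 127 in littermates. In the HLHS right ventricle it held 249, 276 and 225 CPM, against 168, then 234 and 172, then 147 and 173. The HLHS library was the highest of its litter on both sides. Differences were 0.24 ± 0.05 on the left (1.18-fold, adjusted p = 0.0158) and 0.50 ± 0.10 on the right (1.41-fold, adjusted p = 0.0234). The left call was lost without control replicate 2 (adjusted p = 0.0547) and in 1 fit of all 16 libraries (0.0993). The right one was lost without control replicate 1 (0.110) or any 1 HLHS embryo (0.0775 to 0.109), but the summed difference of 0.36 ± 0.06 (adjusted p = 0.00572) kept its call without any 1 embryo.

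Beside Mdk and Ptn, the summed fibroblast and mesenchyme markers and macrophage and leukocyte markers were also higher than in littermates in the right ventricle. The summed level of 15 fibroblast and mesenchyme genes was 8898 to 9761 CPM in HLHS and 5638 to 8520 in control right ventricles, with log2 differences from littermates of 0.68, 0.23 and 0.39 in order of stage. Of the 15, 14 had a positive difference on the right and 3 were higher in the test (median 0.47). On the left the sums overlapped, 5858 to 7333 CPM in HLHS and 6077 to 7284 in controls, with 3 higher, 5 lower and a median of −0.22. Macrophage and leukocyte markers, summed over 14 genes, were at 150 to 227 CPM in HLHS and 129 to 176 in control right ventricles, with differences from littermates of 0.21, 0.50 and 0.22, against −0.52, 0.05 and 0.13 on the left. On the right 2 of 14 were higher and 0 lower, with F13a1 at 1.09 ± 0.10 (adjusted p = 0.00159) and Mrc1 at 0.49 ± 0.10 (adjusted p = 0.0255). Ptprc (−0.13 ± 0.18), Cd68 (−0.16 ± 0.16) and Lyz2 (−0.10 ± 0.17) were negative there without passing, and the others were positive without passing. On the left 0 passed. The part of these markers in the differences of Mdk and Ptn was not tested. Summed cardiomyocyte markers were lower than in littermates in the 3 right ventricle litters, with log2 differences of −0.30 to −0.27, and 3 of 14 were lower in the test on each side. Beside these marker counts, 6.17% of all genes were higher and 6.61% lower on the left, and 3.56% and 3.05% on the right.

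**Figure D4:**
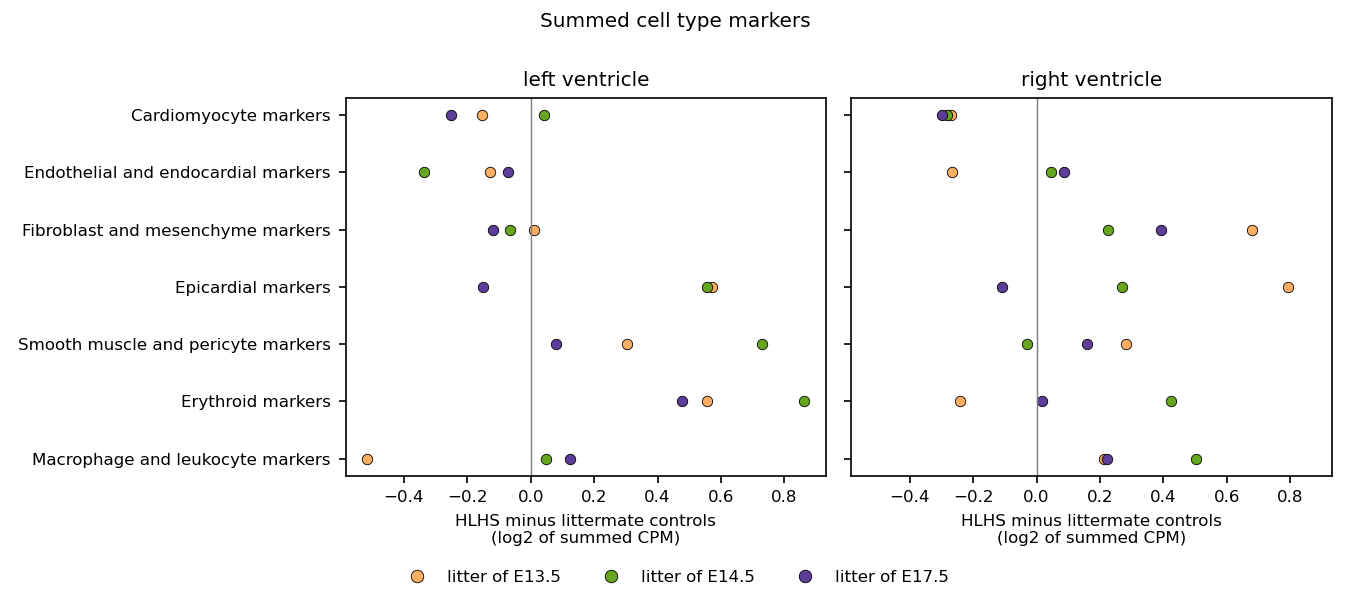
Summed CPM of cell type marker lists, HLHS minus the mean of littermate controls on the log2 scale, 1 point per litter. Fibroblast and mesenchyme markers are above 0 in each litter on the right only, and erythroid markers in each litter on the left only.

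The difference of the HLHS effect between the ventricles was tested with the embryo as a block over 16 libraries. Of the 8 members 0 passed, against 0.0182% of 16508 genes. By unadjusted p, 2 were under 0.05: Mdk at −0.39 ± 0.18 (left minus right, adjusted p = 0.584) and Igf2bp2 at 0.19 ± 0.08 (adjusted p = 0.539). DESeq2 and limma-voom also called none of them. The right-sided call of Mdk and the left-sided call of Igf2bp2 are therefore not shown to differ from the other side.

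Within control embryos Lin28b was higher on the left. The difference from the right ventricle was 0.43 ± 0.09 on the log2 scale (adjusted p = 0.0247), and the left library was the higher in 5 of 5 control embryos. This was 1 of 8 members tested, where 2.09% of genes were higher on the left and 6.1% differed in all. The call was lost without control replicate 2 (adjusted p = 0.0757), 4 (0.0598) or 5 (0.0626). Hmga2 had 0.25 ± 0.07 (adjusted p = 0.0802) and was also higher on the left in 5 of 5 controls. It was called with no count filter (adjusted p = 0.0266).

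In HLHS embryos 0 of 8 members passed between the sides in edgeR, where 1.15% of 15771 genes were higher and 2.89% lower on the left, 4.04% in all, while 4 had an unadjusted p under 0.05. The differences were 0.53 ± 0.15 for Lin28b (adjusted p = 0.0939), 0.31 ± 0.08 for Igf2bp2 (adjusted p = 0.0741) and −0.41 ± 0.11 for Mdk (adjusted p = 0.0732). DESeq2 called Mdk lower on the left (adjusted p = 0.0199), as did edgeR without HLHS replicate 1 (adjusted p = 0.00911). Without HLHS replicate 3, Hmga2 was called higher on the left (0.56, adjusted p = 0.0324).

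Whether the HLHS difference changed from E14.5 to E17.5 was tested on summed ventricles, with the spread taken from the 2 pairs of control littermates. No member passed, and 0% of all genes did. Hmga2 was the member with an unadjusted p under 0.05, at −0.43 ± 0.13 (adjusted p = 0.526). Lin28a, tested in this fit alone among the main comparisons, did not pass. DESeq2 and limma-voom called no member either.

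Among 18 receptors and co-receptors of midkine and pleiotrophin, 4 were higher and 0 lower in the HLHS left ventricle (median 0.21), and 6 higher and 0 lower in the right (median 0.27). Over all genes 6.17% were higher on the left and 3.56% on the right. Gpc2, a glypican of the cell surface, was higher on both sides, by 0.57 ± 0.10 (adjusted p = 0.00840) and 0.70 ± 0.12 (adjusted p = 0.0139). Ptprz1, the receptor tyrosine phosphatase that pleiotrophin inactivates, was higher on the right by 1.26 ± 0.21 (2.40-fold, adjusted p = 0.0106), and had 0.57 ± 0.18 on the left (adjusted p = 0.0669). The syndecan genes encode heparan sulfate co-receptors: Sdc2 was higher on the left by 0.42 ± 0.05, and Sdc4 on the right by 0.50 ± 0.07. Itgav, an integrin subunit, was higher on the right by 0.60 ± 0.08, and the endocytic receptor gene Lrp1 on the left by 0.35 ± 0.05. Of the calls named here, that of Gpc2 on the right was lost without HLHS replicate 2 or 3 (highest adjusted p = 0.0739). The fibroblast and mesenchyme sums given above were higher on the right as well, and their part was not tested.

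Between stages, 8 of these 18 were lower and 1 higher at E17.5 in controls (median −0.33), against 14.1% and 15.8% of all genes. Gpc2 was lower by 1.25 ± 0.11 on the log2 scale (adjusted p = 0.00124), and Sdc1 by 0.42 ± 0.07. Ptprz1 had −0.20 ± 0.21 (adjusted p = 0.503).

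A list of 15 genes held partners of LIN28 in let-7 processing and genes of let-7 biogenesis. Of these, 1 was higher and 0 lower in the HLHS left ventricle, and 0 passed in the right. The higher gene was Prkra, a double-stranded RNA-binding partner of Dicer, at 0.25 ± 0.07 (adjusted p = 0.0422). These counts lie near those of all genes, of which 6.17% were higher on the left and 6.61% passed on the right. At E17.5 Dgcr8, the RNA-binding subunit of the Microprocessor, was higher than at E14.5 by 0.46 ± 0.09 (adjusted p = 0.0119). Hnrnpa1, which binds let-7 precursors, was lower by 0.26 ± 0.07 (adjusted p = 0.0268). Outside the members, no other gene of this list passed between stages, where 30% of all genes did. Leaving out any 1 embryo ended the calls of Prkra and Hnrnpa1 (adjusted p up to 0.149 and 0.148), and that of Dgcr8 was kept.

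Other let-7 targets went in both directions. Of 30, 22 held the match in their 3′ UTR. Thbs1, Mycn, Ccnd1 and Plagl1 held none, while Irs2, Nras and Arid3b held 1 each. In the HLHS left ventricle 8 were higher and 2 lower (median 0.10), and in the right 2 were higher and 0 lower (median 0.09). Over all genes 6.17% were higher and 6.61% lower on the left, and 3.56% and 3.05% on the right. The right count is near that background. Thbs1, the matrix protein thrombospondin 1, was higher on both sides, by 1.26 ± 0.10 (adjusted p = 3.06e-04) and 1.34 ± 0.23 (adjusted p = 0.0135). Mycn, a proto-oncogene of the Myc family, was higher on the left by 0.65 ± 0.07 (adjusted p = 0.00107). Irs2 (0.48 ± 0.10, adjusted p = 0.0175) and Nras (0.21 ± 0.05, adjusted p = 0.0200) were also higher there. The call of Irs2 was lost without HLHS replicate 3 (adjusted p = 0.0619). That of Nras was lost without control replicate 2 or 3 or HLHS replicate 2 (adjusted p up to 0.0877). On the right the call of Thbs1 was lost without control replicate 1 or HLHS replicate 1 or 3 (adjusted p up to 0.0731). Between stages 4 were higher and 5 lower at E17.5. Among them were Ccnd1 (cyclin D1) at 0.46 ± 0.06, Arid3b at 0.62 ± 0.10 and Plagl1 at −0.46 ± 0.08. The shares of all genes were 15.8% higher and 14.1% lower, so these stage counts are near the background.

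**Figure D5:**
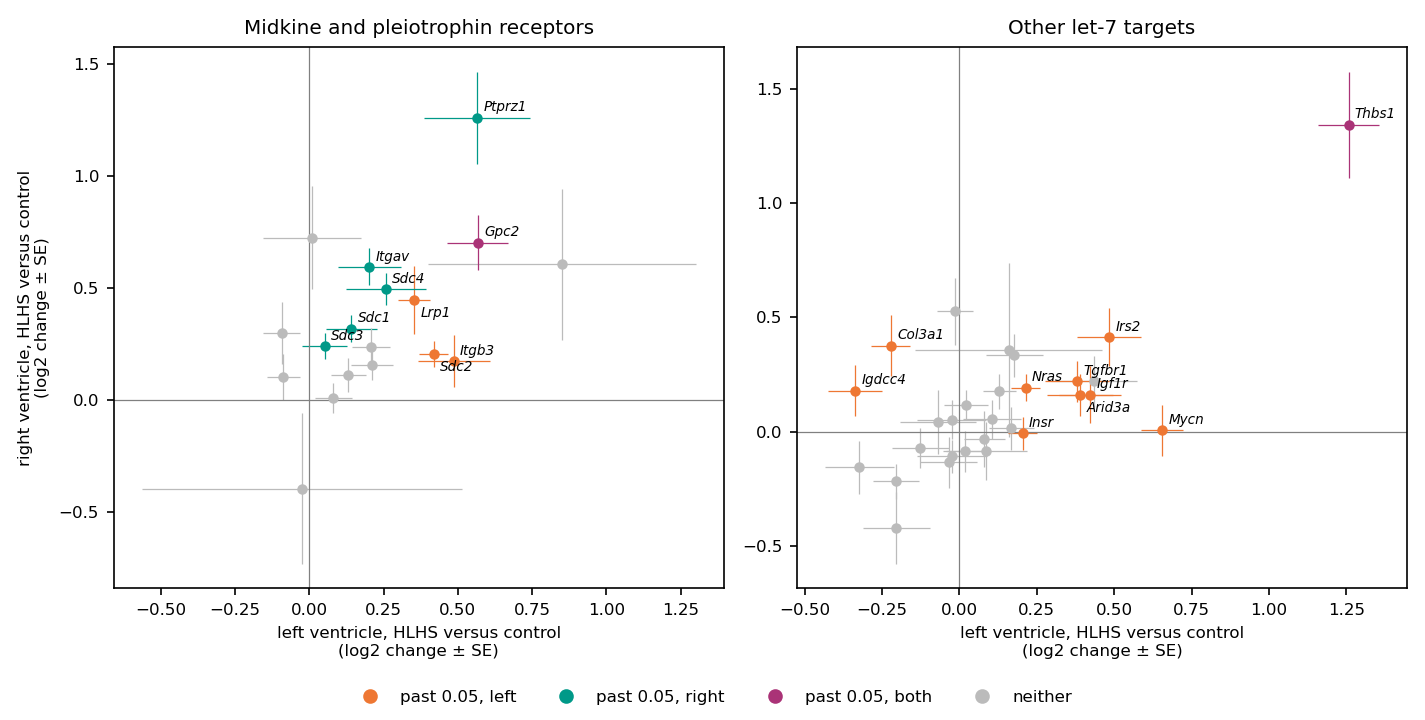
HLHS versus control log2 change with SE, left against right ventricle, for receptors and co-receptors of midkine and pleiotrophin and for the other let-7 targets reported here. Colours mark an adjusted p under 0.05 on the left, the right, both or neither. Gpc2 and Thbs1 pass on both sides.

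A list of 20 genes held RNAs that IGF2BP proteins bind and protein partners of IGF2BP. Of these, 2 were higher in the HLHS left ventricle (Cd44, the hyaluronan receptor and a bound RNA, 0.58 ± 0.08, and Pabpc1, the poly-A binding protein and a partner, 0.22 ± 0.06) and 0 were lower, and 0 passed on the right. Over all genes 12.8% passed on the left and 6.61% on the right, so these counts are near the background. The call of Pabpc1 was kept only without HLHS replicate 3 and was lost without any other 1 embryo (adjusted p up to 0.151). Igf2, the fetal growth factor after which the family is named, had 0.07 ± 0.05 (adjusted p = 0.439) and 0.11 ± 0.07 (adjusted p = 0.434). Between stages Igf2 was lower at E17.5 by 0.39 ± 0.09 (adjusted p = 0.0167) and H19, its imprinted neighbour, by 0.46 ± 0.09 (adjusted p = 0.00947), among 4 that were lower and 3 that were higher. The shares of all genes were 14.1% lower and 15.8% higher, so these counts too are near the background.

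Other growth genes that decline as the mouse matures were set beside the members. Of 17 tested, 10 were lower at E17.5 and 1 was higher (median −0.37), against 14.1% and 15.8% of all genes. The cell cycle inhibitor gene Cdkn1c was lower by 0.93 ± 0.07 and the glypican gene Gpc3 by 0.92 ± 0.08, and Dlk1 was the one that was higher, by 0.63 ± 0.07. In the HLHS left ventricle 4 of the 17 were higher, including Mycn and Gpc3 (0.32 ± 0.06), and in the right 2 were higher, Mest (0.36 ± 0.08) and Peg3 (0.44 ± 0.10), with 0 lower on either side. Over all genes 6.17% were higher on the left and 3.56% on the right. Each call on the right was lost without 6 of the 8 embryos in turn (adjusted p up to 0.146 for Mest and 0.192 for Peg3). On the left Mycn and Gpc3 kept their calls in 8 of 8 such fits. The other left calls, of Igf1r and Ezh2, were kept in 6 of 8 and 1 of 8.

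Of 25 cell cycle genes, 11 were lower and 1 higher at E17.5 (median −0.24), against 14.1% and 15.8% of all genes. In the HLHS left ventricle 4 of 25 were higher, with Plk1, a mitotic kinase, at 0.35 ± 0.08, and in the right 0 passed. Over all genes 6.17% were higher on the left and 6.61% passed on the right. The call of Plk1 was lost without control replicate 2 or HLHS replicate 2 or 3 (adjusted p up to 0.0947). Of the other left calls, that of Cenpe was kept in 2 of 8 fits with 1 embryo left out. Those of Aurka and Ccnb1 were kept in 0 of 8. In controls 11 of 25 were higher on the left side than on the right (median 0.20), against 2.09% of all genes. Cardiomyocyte markers differed from these lists between stages, with 8 of 14 higher and 0 lower at E17.5.

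Genes with the pattern most like that of a member were named by the root mean square difference of centred log2 CPM over 16 libraries, among 11492 genes. For Hmga2, whose log2 CPM had an SD of 1.03, the nearest were Dgkk (0.384), Prrx2 (0.395) and Nfe2l3 (0.397). For Mdk, with an SD of 0.76, they were Efna4 (0.194), Col9a2 (0.197) and Adgrl3 (0.235). Ptn was nearest to Dact1 (0.102), Igf2bp1 to Plagl2 (0.101), Igf2bp2 to Map3k4 (0.103), Igf2bp3 to Ttyh3 (0.0983), Lin28b to Ccdc112 (0.186) and Hmga1 to Haus4 (0.151). Hmga2 thus had the largest distance to its nearest gene of these 8, and also the largest spread over libraries. All these values share libraries, stages and litters and are a description.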

How the data were processed

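Read counts per gene of 16 ventricle libraries were used as the authors deposited them, as whole-number counts. The submitters' processing notes list the build mm9 and, in no stated order, HTSeq 0.5.4p5, TopHat2 2.0.9, edgeR 3.4.2 and Picard. Library preparation used a TruSeq RNA kit, per the labels' protocols. Annotation, strand use and duplicate handling: not given in the sources used here. Symbols were matched to 32919 of 37991 genes. Coordinates, transcripts and 3′ UTRs come from GENCODE M21 on GRCm38, another build than mm9, so none is a coordinate of the deposited table.

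Tests ran in edgeR 4.0.16 under R 4.3.3, by glmQLFit and glmQLFTest with TMM factors, after filterByExpr (count of at least 10, total of at least 15), with Benjamini-Hochberg adjustment over all genes and a threshold of 0.05. SE is the log2 change over the root of F. CPM values were computed from the counts, with a prior count of 2 on the log2 scale. HLHS was compared with control with the litter as a term, sides with the embryo as a block. Alternatives were DESeq2 1.42.0, limma-voom (limma 3.58.1), DESeq2 size factors in edgeR, other count filters, globins left out, other model terms and each embryo left out. The scripts were tested on simulated counts. Replicate numbers mark embryos, per the labels, and pair the ventricles of 1 animal. In the litters of E14.5 and E17.5 the deviations of both ventricles of a control from the group mean correlated across genes with an r of 0.338 and 0.363. No 2 libraries of a group agreed within sampling noise (lowest chi-square per degree of freedom 7.51 over 26 pairs). Total counts ran from 17081273 to 28648645 per library.

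The members and the gene lists were chosen with earlier results of these data known, so no count over a list is independent support. From each pathway list up to 4 genes with the smallest p past the threshold were eligible as examples, and not all are named. The values of 1 gene of the let-7 target list are not reported here, while the counts over that list include it. The nearest 3 genes were taken for members with a mean log2 CPM of at least 2. Igf2, H19, Mycn on the growth list and the values of Ptprz1 outside its call were added after their values were seen.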

Additional observations from a re-analysis of the deposited data

Results flagged for a closer look

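In the control left ventricles, the Igf2bp1 level of 1 library stood apart from the other 4. The E13.5 control held 77.4 CPM and the others 37.7 to 45.4 CPM, and the gap to its neighbour was 0.742 of the range of the group. The group spans 3 stages and that embryo is its only one of E13.5. In its right ventricle Igf2bp1 was at 65.6 CPM, and in the HLHS littermate at 87.5 and 82.5 CPM. Chance flags about 1 in 20 groups, and stage and litter cannot be told apart here.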

How the results depend on the processing

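The main limit is the number of embryos, with 1 HLHS embryo per litter. Without the replicate block, which here is the litter term, the members called higher in HLHS went from 3 to 0 on the left, from 3 to 0 on the right and from 5 to 0 in the summed ventricles, while all genes called went from 2043 to 1, from 1067 to 0 and from 2401 to 0. Hmga2 kept its direction with log2 differences of 1.30, 1.14 and 1.20. With 1 embryo left out, the count of members lower on the left was 0 to 1, that of members higher on the right 1 to 4 (3 with every embryo), and that in the summed ventricles 3 to 4. For control sides the count of members higher on the left was 0 to 1, and 2 with no count filter. In HLHS embryos members higher on the left were 0 to 1 and members lower 0 to 1 with 1 embryo left out, 2 and 1 with no count filter, and 1 was lower with DESeq2. The cause of these moves was not tested. Whole-table counts fell to 845 on the left and 195 on the right with 1 embryo left out. On the right they were 1720 with no count filter, 1662 with all 16 libraries in 1 fit and 601 with a term for sex. For the left minus right effect 3 genes became 132 with DESeq2, 217 with no count filter and 171 with a side by stage term, between stages 5043 became 2905 on the right ventricles alone, and the change of the HLHS effect went from 0 to 55 with DESeq2 and 303 without control replicate 2. Control sides went from 990 to 1570 and HLHS sides from 637 to 1309 with no count filter.

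Signs that turned belonged to members that did not pass and had small differences. In the HLHS left ventricle Lin28b had 0.021 without the block and −0.060 to 0.099 with 1 embryo left out, and Mdk had 0.062 without the block, 0.031 with a term for sex and −0.16 to 0.033 with 1 embryo left out. With 1 embryo left out, Igf2bp1 ranged from −0.022 to 0.17 in the HLHS right ventricle and summed Lin28b from −0.099 to 0.026. In the left minus right effect the ranges were −0.17 to 0.27 for Hmga1 and −0.21 to 0.29 for Hmga2. Between stages Igf2bp2 had −0.0048 on the left ventricles alone, −0.075 as a slope over 3 days and −0.0038 to 0.077 with 1 embryo left out, and its change of the HLHS effect ranged from −0.015 to 0.067. Between the sides of controls the ranges were −0.12 to 0.0053 for Igf2bp1, −0.14 to 0.098 for Mdk and −0.20 to 0.0053 for Ptn, and between those of HLHS hearts −0.082 to 0.35 for Hmga1, −0.012 to 0.26 for Igf2bp1 and −0.077 to 0.035 for Igf2bp3. Over named genes and alternatives 1770 values kept direction and side of the threshold, 277 lost a call, 15 gained one and 29 changed sign.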
